A study of Mus musculus with 32 samples.

Results

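The HMBA time course is the set of arrays that follow mouse E14TG2a embryonic stem (ES) cells through 6 days of treatment with hexamethylene bisacetamide (HMBA). Its members were chosen by their labels alone, as every array of cells treated with HMBA, and they are 6 of the 32 arrays of the series and 6 of its 18 two-colour arrays. HMBA was given at 3 mM, and RNA was compared with that of untreated E14TG2a cells on day 2, day 4 and day 6, on 2 arrays a day. On replicate 1 of each day the treated sample carried the dye Cy3 and on replicate 2 the dye Cy5, and the deposited ratios are treated over untreated on all arrays. The other two-colour arrays hold the same cell line with 0.1 µM retinoic acid (RA) or with 1% dimethyl sulfoxide (DMSO), on the same days and with 2 arrays a day. The remaining arrays are of another kind and hold E14TG2a cells carrying the pSUPER-puro plasmid, 4 with RNA interference (RNAi) against Pou5f1, 5 with RNAi against Nanog and 5 with the empty vector.

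HMBA is a small polar bisamide, known as an inducer of terminal differentiation in murine erythroleukaemia cells. It is known to release the elongation kinase P-TEFb from its inhibitory complex and to raise the inhibitor Hexim1 in several cell types, and it is one of the chemicals that make ES cells leave the undifferentiated state in culture. ES cells are held in that state by a network around Oct4 (gene Pou5f1), Sox2 and Nanog, and loss of Oct4 in ES cells is known to let trophoblast genes come on.

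The 6 arrays held 15750 to 19066 values each, and 14938 of the 21106 probes had a value on all 6 and were tested. The log base of the ratios is not stated and was taken as 2, so that a ratio of 1 is a doubling over untreated cells. The SD of the log2 ratios over probes was 0.471 and 0.519 on day 2, 0.599 and 0.694 on day 4, and 0.617 and 0.646 on day 6. Arrays correlated with each other more by dye than by day: over the tested probes r was 0.64 to 0.89 between days in the same dye orientation, and 0.51, 0.61 and 0.52 between the opposite orientations of day 2, day 4 and day 6. Each fit therefore held a mean per day and a term for dye orientation, and the 2 residual degrees of freedom were joined by 8.55 from the spread of all probes. The labels do not say whether arrays of opposite dye come from separate cultures. Replicate and dye orientation are the same, so the dye term takes up the mean difference between replicates, and a culture difference cannot be told from dye. The p-values thus measure how much the replicate difference varied between days, not the spread between the 2 arrays of a day. That variation may be technical, and the spread of untreated cells is left out. These are ratios in bulk RNA, in which fewer cells of a type and less RNA per cell cannot be told apart, and with no levels the identity of the untreated cells could not be checked against markers.

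The question of a time course is when each gene moved. With limma and a Benjamini-Hochberg adjusted p under 0.05 as the threshold, 42.9% of probes differed from untreated cells at day 2, 51.8% at day 4 and 50.9% at day 6. Of the day 2 probes 3565 were higher and 2836 lower, and 369 and 213 of them by at least 1 log2. At day 4 749 were higher and 477 lower by at least 1 log2, and at day 6 629 and 534. The change over time, the day 6 mean minus the day 2 mean and called the trend here, passed the test at 4260 probes or 28.5%, 1770 of them rising and 2490 falling, and 570 moved by at least 1 log2 (250 rising, 320 falling). A day 4 mean off the midpoint of days 2 and 6, called the bend here, passed at 1636 probes or 11%. Without the dye term these counts were smaller, 52 for the trend, 473, 1781 and 1630 for days 2, 4 and 6, and by limma 0 for the bend, with 676 at an unadjusted p under 0.05.

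Probes were sorted by the shape of their course. Early held probes (235 in all, 143 higher and 92 lower) differed by at least 1 log2 at day 2, stayed within 0.5 of that at day 6 and had no called trend, with medians of 1.32, 1.60 and 1.37 over the 3 days for those higher. Fading probes (115 higher, 49 lower) also stood at least 1 log2 off at day 2 and then moved back, the higher ones with medians of 1.29, 0.93 and 0.55. Early plateau probes (87 rising, 83 falling) made over 75% of their trend between days 2 and 4, with medians of 0.28, 1.63 and 1.61 for those rising. Steady probes (59 rising, 61 falling) made 25 to 75% of the trend in each step, and late probes (25 rising, 11 falling) over 75% of it between days 4 and 6. Day 4 peak probes (113 higher, 40 lower at day 4) turned back after day 4, the higher ones with medians of 0.53, 1.56 and 0.79. Reversing probes passed the test with opposite signs at days 2 and 6, 176 ending higher and 269 ending lower. Each probe was placed in the first class it met, with reversing tried before all others and day 4 peak next. Rhox9, Plac1 and Crabp1 made 18.4, 5.0 and 13.7% of their rise by day 4. They were slightly lower than untreated cells at day 2, so they count as reversing and not as late. Plateau, steady and late probes needed a trend, and peak probes a day 4 ratio, of at least 1 log2, while reversal had no minimum of size, so the class counts are not ranked. Reversing probes had small medians, 0.42 at day 2 and -0.47 at day 6 for those ending lower. Without the dye term, a setting added after the data were seen, the classes held 200 early held, 2 fading, 15 early plateau, 23 steady, 6 late, 0 day 4 peak and 8 reversing probes.

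**Figure D1:**
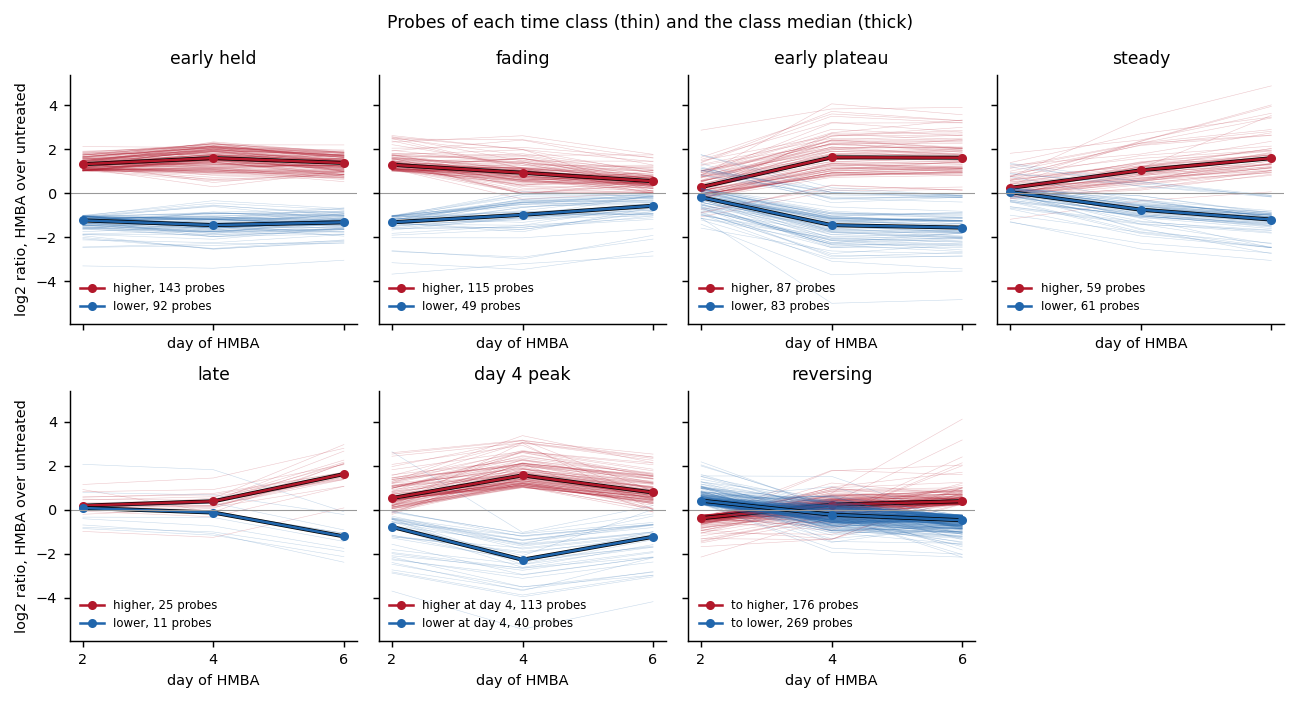
Time classes of the HMBA course. Each panel plots the log2 ratio of HMBA over untreated cells against day for a class, with a thin line per probe (mean of 2 arrays) and a thick line for the median of each direction. The early held and fading classes stand apart from 0 at day 2, late and steady classes separate by day 6, and reversing probes cross 0 with small medians.

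The 10 largest rises between days 2 and 6 included 4 genes of the placenta, Rhox6, Rhox9, Nrk and Plac1, and the imprinted growth regulators H19 and Cdkn1c. Rhox6, a homeobox gene of the X-linked cluster expressed in placenta and germ cells, had log2 ratios of -0.09 and -0.65 on the day 2 arrays, 1.14 and 0.39 on the day 4 arrays and 4.47 and 3.76 on the day 6 arrays. Both day 2 arrays lay below 0, both day 6 arrays were far above every earlier one, and the trend was 4.48 ± 0.12 (SE; limma adjusted p = 2.76e-08, 2 arrays a day). Its neighbour in family and function Rhox9 showed the same order of days, at -0.13 and -0.52, then 0.34 and 0.29, then 3.16 and 3.18 (trend 3.50 ± 0.14). Plac1, a placental membrane-associated protein gene, was at -0.13 and -0.75 on day 2, 0.11 and -0.70 on day 4 and 2.74 and 2.06 on day 6. For Plac1 the days 2 and 4 overlapped and only day 6 stood apart, with a trend of 2.84 ± 0.12. Nrk, an X-linked kinase gene of trophoblast, climbed in even steps instead: 0.65 and 0.53, 2.38 and 2.36, 4.35 and 3.67 over the 3 days (trend 3.42 ± 0.16).

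**Figure D2:**
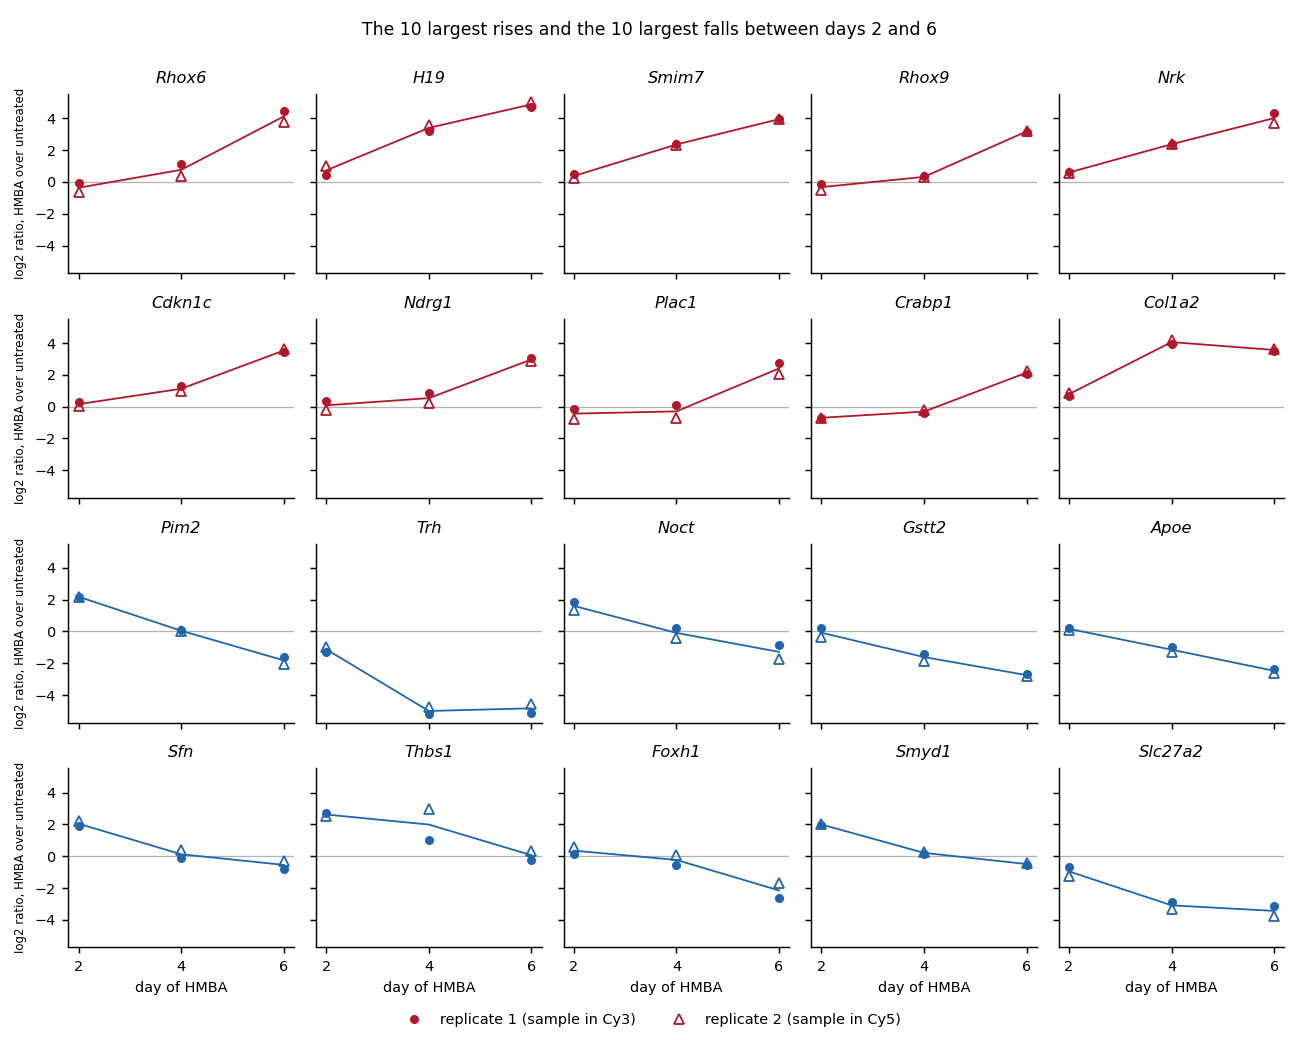
The 10 largest rises and the 10 largest falls between days 2 and 6. Points are the log2 ratios of HMBA over untreated cells on single arrays, by day and dye orientation, and lines join the day means. In the plot Rhox6, Rhox9 and Plac1 lie near or below 0 on day 2 and above 2 on day 6, and Pim2, Noct, Sfn and Smyd1 lie above 1 on day 2 and below 0 on day 6.

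Genes of the trophectoderm, the outer layer of the blastocyst that forms the placenta, were mixed at day 2 and high by day 6. Of 19 genes of a trophectoderm list that were tested, 16 rose over time and 1 fell, where 12.7% of all 11030 genes rose and 17% fell. With no dye term 6 rose. The list's median was -0.06 at day 2, 0.81 at day 4 and 2.12 at day 6, against medians within 0.03 of 0 for all genes. Krt7, a keratin of simple epithelia and trophoblast, read 0.77 and 0.78 on day 2, 2.33 and 2.22 on day 4 and 3.53 and 3.31 on day 6, with no overlap between days (trend 2.64 ± 0.12). Krt19, another such keratin, was already at 1.89 and 1.74 on day 2 and reached 3.66 and 3.60 on day 6. Gata3, a transcription factor of the trophoblast lineage, was among the earliest, at 2.29 and 1.94 on day 2, 3.35 and 2.74 on day 4 and 3.16 and 2.92 on day 6. Id2, an inhibitor of basic helix-loop-helix factors, was at 1.27 and 0.42 on day 2 and at 3.83 and 2.54 on day 4. Ets2, an Ets factor of trophoblast, was held near 1 from day 2 on, between 0.89 and 1.08 on the 6 arrays. Members named next were chosen after their values were seen. Cdx2, the factor that starts the trophectoderm programme in the embryo, stayed between -0.32 and 0.31 on all 6 arrays, although its trend of 0.42 ± 0.13 passed the test. Eomes, a T-box factor of trophoblast stem cells and mesoderm, was the member that fell, with a trend of -0.54 ± 0.13. Tfap2c, an AP-2 factor, crossed 0 late, at -0.45 and -0.59 on day 2, -0.61 and -0.20 on day 4 and 1.13 and 1.29 on day 6, and Ascl2, a factor needed for the placenta, stood at -0.04 and -0.10 on day 2 and 1.80 and 1.92 on day 6.

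Imprinted genes, which are expressed from only the maternal or the paternal copy and act on fetal and placental growth, rose as well. Of 21 tested, 12 rose over time and 3 fell (12.7% and 17% of all genes), and without the dye term 3 rose. The median was 0.42 at day 2 and 1.02 at day 6. H19, a maternally expressed non-coding RNA, had ratios of 0.43 and 1.03 on day 2, 3.21 and 3.58 on day 4 and 4.74 and 5.01 on day 6. These days did not overlap, and its trend of 4.15 ± 0.13 (adjusted p = 5.43e-08) was second to that of Rhox6. Cdkn1c, which encodes the cell cycle inhibitor p57, was near untreated cells on day 2, at 0.30 and 0.01, and at 3.44 and 3.62 on day 6. Slc38a4, an amino acid transporter, read -0.17 and -0.13 on day 2, 1.26 and 1.48 on day 4 and 2.39 and 2.33 on day 6. Peg3, a zinc finger gene expressed from the paternal copy, and Peg10, derived from a retroelement and needed for the placenta, had made most of their change by day 4. Peg3 was at 2.92 and 2.25 on day 4 and 3.27 and 2.71 on day 6, and Peg10 at 3.06 and 3.94 on day 4 and 2.90 and 3.48 on day 6. Phlda2, a maternally expressed limiter of placental growth, dipped between high values, at 0.76 and 1.09 on day 2, -0.27 and 0.05 on day 4 and 1.93 and 2.31 on day 6. Its day 4 arrays were lower than both other days, and its bend was -1.63. Snrpn, a paternally expressed splicing protein gene, went the other way over time, at 0.61 and 0.83 on day 2 and -1.10 on both day 6 arrays (trend -1.82 ± 0.13).

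The 3 core factors of the pluripotency network had different courses. Pou5f1 itself was close to untreated cells on day 2, at 0.10 and -0.38, and lay at -1.78 and -2.32 on day 4 and -2.0 and -2.44 on day 6. The day 2 difference did not pass the test (adjusted p = 0.201), the day 4 and day 6 arrays overlapped, and the trend was -2.08 ± 0.12 (adjusted p = 1.47e-06). Nanog, the homeobox factor that lets ES cells self-renew without LIF, was already lower on day 2 and moved little afterwards: -1.50 and -0.83, -1.85 and -1.45, -1.61 and -1.12 over the 3 days, with a trend of -0.20 that missed the threshold (adjusted p = 0.263). Sox2, the partner of Oct4 on DNA, differed by dye more than by day, at -0.42 and -1.43 on day 2, -0.74 and -2.12 on day 4 and -1.12 and -2.35 on day 6. Within each dye it lay lower at each later day, and its trend was -0.81 ± 0.13. Without the dye term the trend of Pou5f1 had an adjusted p of 0.093 and that of Sox2 one of 0.84.

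Among 29 tested genes of a naive pluripotency list, 21 were lower and 1 was higher than in untreated cells at day 2, where 20% of all genes were lower. At day 4 28 were lower and at day 6 27, where the shares of all genes were 25.5% and 28.1%, and the list's median was -1.17, -1.68 and -1.78 over the 3 days. With no dye term 13 were lower at day 2. Nr0b1, which encodes the nuclear receptor Dax1, was lowest, at -3.39 and -3.99 on day 2, -5.11 and -5.73 on day 4 and -3.77 and -4.57 on day 6. Its day 4 arrays were below all others, with a bend of -1.49. Zfp42, known as Rex1 and a usual marker of undifferentiated ES cells, was at -2.34 and -3.11 on day 2, -3.05 and -4.20 on day 4 and -2.11 and -3.50 on day 6. Tdgf1, the Nodal co-receptor Cripto, and Fbxo15, an F-box gene bound by Oct4, had the same form of course, and their day 2 ratios were -2.49 and -3.26 for Tdgf1 and -2.38 and -2.56 for Fbxo15. In all, 15 of the 29 bent downwards at day 4 (4.68% of all genes) and 0 upwards by limma, or 21 and 1 at an unadjusted p under 0.05. Without the dye term 0 of these bends passed, and 8 and 7 did without replicate 1 or replicate 2 of day 4. Klf4, a Krüppel-like factor, was lowest at day 4 and nearer to untreated cells at day 6, at -2.05 and -3.17 on day 2, -2.14 and -3.82 on day 4 and -1.13 and -2.70 on day 6. Its trend of 0.70 had an adjusted p of 0.00603, and 0.0502 without replicate 1 of day 2.

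A smaller part of the list kept untreated levels through day 2 and then fell. Dnmt3l, a cofactor of DNA methylation, was at -0.14 and 0.21 on day 2, -1.88 and -1.45 on day 4 and -2.68 and -2.21 on day 6 (trend -2.48 ± 0.12). Phc1, a polycomb subunit, was at -0.01 on both day 2 arrays, -1.48 and -1.33 on day 4 and -2.34 and -2.27 on day 6. Neither gene's days overlapped, and neither differed from untreated cells at day 2. Utf1, a chromatin factor of ES cells, had a strong dye difference, at -1.03 and 0.39 on day 2 and -2.55 and -1.01 on day 6, and fell within each dye. Tet1, the enzyme that oxidises 5-methylcytosine, belongs to a chromatin list and was the lowest fading gene at day 2, at -3.72 and -3.62, then -3.28 and -3.13 on day 4 and -2.83 and -2.87 on day 6.

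The 6 largest early held falls, which by the rule of their class had no called trend, included genes of germ cells and the early embryo. Morc1, a gene of spermatogenesis, was at -2.75 and -3.85 on day 2, -2.83 and -3.99 on day 4 and -2.45 and -3.64 on day 6. Dppa5a, an RNA-binding protein gene of ES cells, ranged from -2.60 to -1.95 over the 6 arrays, Dppa2 from -2.89 to -1.86 and Tcl1, a cofactor of Akt, from -2.75 to -1.79. Khdc3, part of the maternal complex of the oocyte, ranged from -2.76 to -1.89 and Manba, a lysosomal mannosidase, from -2.43 to -1.11. In each of the 6 genes the arrays of day 6 overlapped those of day 2. Scaling the arrays to equal spread gave Khdc3, Dppa5a, Morc1 and Manba a called trend.

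Genes of the epiblast, the state that follows naive pluripotency, were mixed at day 2 and mostly lower by day 6. At day 2 8 of the 19 tested were higher and 7 lower (24.3% and 20% of all genes), and at day 6 2 were higher and 14 lower (26.6% and 28.1% of all genes). Over time 13 fell and 1 rose (17% and 12.7% of all genes), with a median trend of -0.86, and without the dye term 1 fell. Otx2, a homeobox factor of the epiblast and forebrain, was at -0.58 and -0.74 on day 2, -2.82 and -2.97 on day 4 and -2.48 and -2.89 on day 6. Fgf5, a growth factor used as an epiblast marker, was above untreated cells on day 2, at 1.45 and 0.69, and below on days 4 and 6, at -0.10 and -0.74 and then -0.25 and -0.67. Lef1, a transcription factor of the Wnt pathway, crossed 0 in the same way, at 1.28 and 0.86 on day 2, -0.61 and -1.19 on day 4 and -1.09 and -1.35 on day 6 (trend -2.29 ± 0.13). Dnmt3b, a de novo DNA methyltransferase, was at 0.73 and 0.09 on day 2 and -1.20 and -1.78 on day 6. Dkk1, a secreted Wnt inhibitor, was the member that rose, with day 2 values of -0.09 and 0.11 and day 4 values of 2.55 and 2.90. Cdh2, which encodes N-cadherin, was held above untreated cells throughout, between 1.30 and 2.11.

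**Figure D3:**
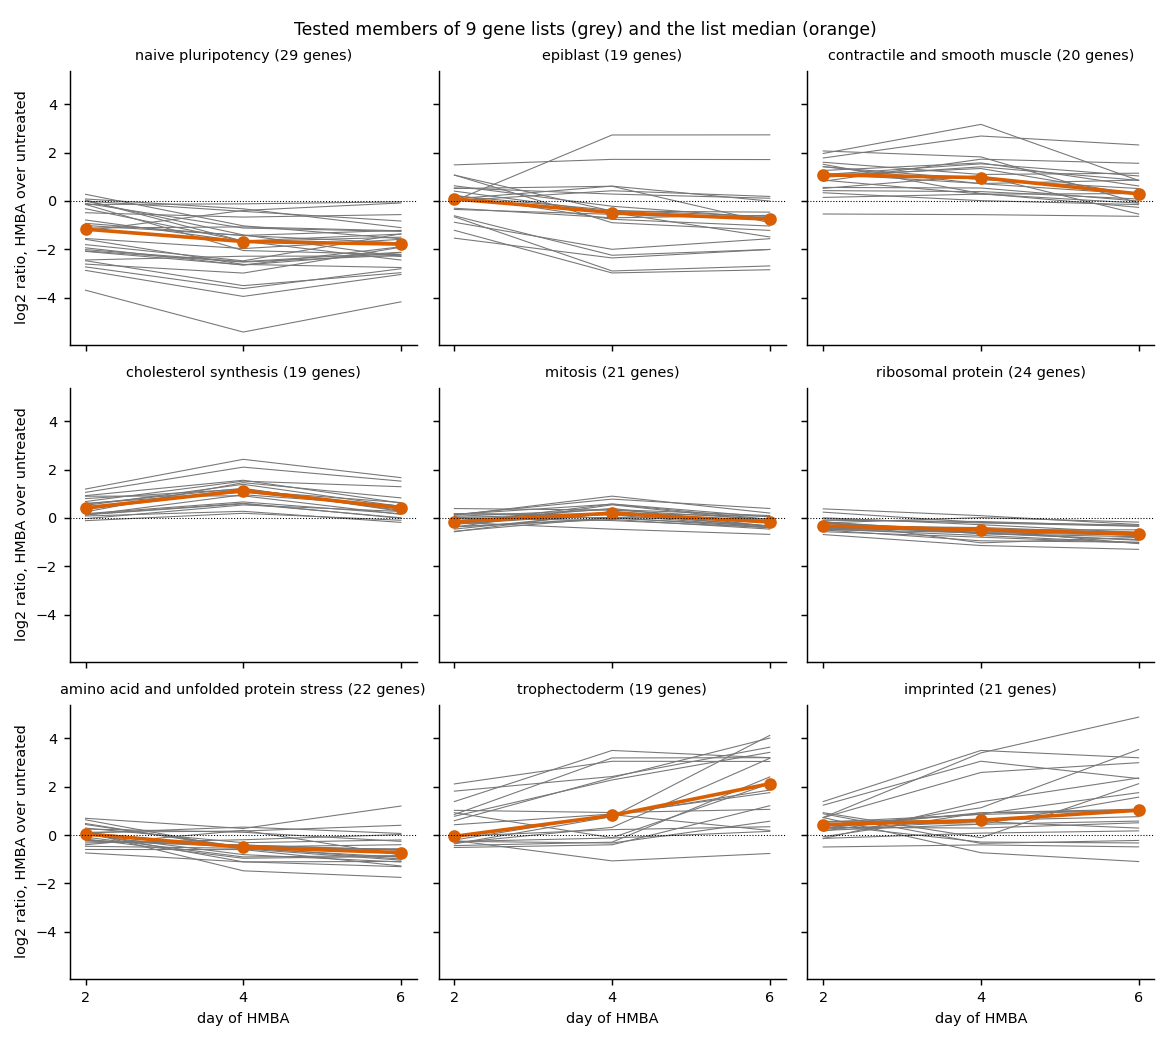
Course of 9 gene lists. Lines are log2 ratios of HMBA over untreated cells by day for single genes, as the mean of 2 arrays, and the thick line is the list's median. The naive pluripotency median lies below -1 on every day, the trophectoderm median passes 2 on day 6, the contractile median is highest on day 2, and the cholesterol median peaks on day 4.

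Genes of the contractile actin cytoskeleton, many of which are known targets of serum response factor through the CArG box, were high at day 2 and lower by day 6. Of 20 tested genes of a contractile and smooth muscle list, 18 were higher and 1 lower at day 2, 11 were higher and 3 lower at day 6, and 12 fell and 2 rose between those days. Of all genes 24.3% were higher at day 2, 26.6% were higher at day 6, and 17% fell. Fitted without dye, 10 of the list were higher at day 2 and 1 fell. The list's median was 1.08 at day 2, 0.97 at day 4 and 0.29 at day 6. RefSeq promoter windows (mouse build GRCm38.p6, 250 bases before to 50 after the gene start) were searched for the box. Only exact matches were counted, CC, then 6 bases of A or T, then GG, so boxes with another base in the core were missed. A CArG box on either strand was found in 5 of 20 windows of this list's genes (25%). The box was in 146 of 10938 windows of tested genes (1.33%) and 535 of 32851 windows in all (1.63%). The windows with the box belong to Actc1, Cnn2, Myl9, Acta1 and Myl6, and the first 4 are printed here because their genes fell between days 2 and 6, 5′ to 3′ on the strand of the gene with the box in capitals. They lie at chr2:114052826-114053125 on the minus strand for Actc1, chr10:79988350-79988649 on the plus strand for Cnn2, chr2:156775214-156775513 on the plus strand for Myl9 and chr8:123894726-123895025 on the minus strand for Acta1.
Actc1: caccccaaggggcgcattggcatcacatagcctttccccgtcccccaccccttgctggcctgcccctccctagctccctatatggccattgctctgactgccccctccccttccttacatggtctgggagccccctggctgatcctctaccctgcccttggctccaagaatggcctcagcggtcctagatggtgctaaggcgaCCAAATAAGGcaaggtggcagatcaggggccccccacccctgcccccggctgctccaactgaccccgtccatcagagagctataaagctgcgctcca
Cnn2: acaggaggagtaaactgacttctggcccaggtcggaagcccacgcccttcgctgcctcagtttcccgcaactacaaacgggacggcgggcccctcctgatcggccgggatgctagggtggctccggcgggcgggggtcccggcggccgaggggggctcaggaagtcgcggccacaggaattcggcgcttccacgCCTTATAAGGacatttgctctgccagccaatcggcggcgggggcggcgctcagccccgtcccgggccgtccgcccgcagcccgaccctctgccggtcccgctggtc
Myl9: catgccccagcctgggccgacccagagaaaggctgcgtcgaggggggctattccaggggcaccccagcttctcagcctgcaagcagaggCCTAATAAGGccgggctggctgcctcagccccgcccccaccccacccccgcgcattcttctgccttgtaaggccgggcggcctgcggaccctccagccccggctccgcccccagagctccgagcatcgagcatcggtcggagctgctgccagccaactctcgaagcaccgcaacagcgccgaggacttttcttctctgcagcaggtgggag
Acta1: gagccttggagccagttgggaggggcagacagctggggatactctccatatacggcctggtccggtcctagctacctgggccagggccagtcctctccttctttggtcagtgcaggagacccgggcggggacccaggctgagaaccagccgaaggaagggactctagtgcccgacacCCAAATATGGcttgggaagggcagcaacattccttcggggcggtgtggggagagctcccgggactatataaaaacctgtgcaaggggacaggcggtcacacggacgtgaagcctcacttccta
The match describes letters in these windows and says nothing of binding. Many genes of this kind are known for the box, so its share in the list is not a result of the HMBA ratios. Actc1, cardiac actin, had ratios of 1.16 and 1.68 on day 2, 0.69 and 0.73 on day 4 and 0.50 and 0.06 on day 6, with all day 2 arrays above all later ones. Cnn2, a calponin that binds actin, was at 1.36 and 1.48 on day 2 and 0.43 and 0.60 on day 6. Myl9, a myosin light chain of smooth muscle, was at 1.04 and 0.69 on day 2 and 0.31 and -0.49 on day 6. Acta1, skeletal actin, was highest on day 4, at 0.65 and 0.39 on day 2, 1.10 and 1.00 on day 4 and -0.78 and -0.30 on day 6. Actc1 and Acta1 are named here for their windows, chosen after their values were seen in the case of Actc1.

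The contractile genes with the largest day 2 or day 4 ratios differed in when they turned. No exact match to the box was found in the windows of Acta2 and Cnn1, and boxes with another base in the core were not searched for. Tagln, which encodes the actin-binding protein SM22, was at 1.99 and 2.15 on day 2, 1.65 and 1.99 on day 4 and -0.19 and 0.02 on day 6. Only its day 6 arrays stood apart, and the day 6 mean no longer differed from untreated cells (adjusted p = 0.445, trend -2.15 ± 0.12). Acta2, smooth muscle actin, peaked, at 1.99 and 1.94 on day 2, 3.19 and 3.14 on day 4 and 1.07 and 0.63 on day 6 (bend 1.76). Cnn1, smooth muscle calponin, turned earlier, at 1.82 and 1.21 on day 2, 0.64 and -0.02 on day 4 and 0.14 and -0.66 on day 6. Of 8 tested cardiac muscle markers 3 fell and 1 rose (17% and 12.7% of all genes), and of 6 tested fibroblast feeder markers 0 rose and 0 fell by the limma test over time (0 and 1 at an unadjusted p under 0.05), with a median of 0.05 at day 6.

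The 6 largest early rises that faded included genes of matrix, receptors and cell shape. Thbs1, which encodes the matrix protein thrombospondin-1, was at 2.71 and 2.52 on day 2 and -0.21 and 0.33 on day 6, but its day 4 arrays were 1.04 and 2.94 and the SE of its trend was 0.35. Tnfrsf12a, the receptor of the cytokine TWEAK, was at 2.70 and 2.27 on day 2, 1.38 and 0.88 on day 4 and 0.85 and 0.52 on day 6. Nab2, a repressor of Egr factors, followed the same order, at 2.28 and 2.47, 1.13 and 1.11, then 0.40 and 0.55. Cldn6, a tight junction protein of early epithelia, kept more of its rise, at 2.54 and 2.58 on day 2 and 1.30 and 1.57 on day 6. Flnc, a filamin, and Fgfbp1, a carrier of fibroblast growth factors, were at 2.36 and 2.56 and at 2.74 and 2.37 on day 2, and at 1.58 and 1.61 and at 1.73 and 1.18 on day 6. CArG boxes were found in 6 of 104 windows of the genes that faded from above (5.77%), against 1.33% of windows of tested genes. The highest share was in late falls, with 1 of 12 (8.33%), and genes that faded from below had 2 of 42 (4.76%). Reversing genes that ended lower had 7 of 216 (3.24%) and early held rises 2 of 95 (2.11%). Genes higher at a day 4 peak had 0 of 103 and early plateau rises 0 of 83. All these are counts of few windows with the box. Of the 6 genes with the box that faded from above, Actc1 and Cnn2 are also in the contractile list.

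A further set of early rises was held. Podxl, a sialomucin of the cell surface, ranged from 1.4 to 2.55 over the 6 arrays, with replicate 1 above replicate 2 on each day. Ahnak, a large scaffold protein, ranged from 1.62 to 2.52 by its most changed probe. Its 2 other probes were less raised, with day 2 ratios between 0.80 and 0.99 and trends between -0.22 and 0.61. Carhsp1, an mRNA-stabilising cold-shock domain protein, and Samd4, which encodes the RNA-binding protein Smaug1, ranged from 1.38 to 1.85 and from 1.37 to 2.49. None of the probes with these ranges had a called trend, as the class requires, and in each the arrays of days 2 and 6 overlapped or lay within 0.5 log2. Krt8, the keratin partner of Krt18, was higher still but rose further by day 4, and its class was early plateau and not early held. Its ratios were 3.08 and 2.64 on day 2, 3.96 and 3.70 on day 4 and 3.90 and 3.89 on day 6. Krt8 is named after its values were seen, and Krt18 lay between -0.32 and 0.15 on the same arrays.

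Of the 10 largest falls over time, 6 were in genes that were higher than in untreated cells at day 2, among them Pim2, Noct, Sfn and Smyd1. Pim2, a serine/threonine kinase gene of cytokine signalling, was at 2.17 and 2.19 on day 2, 0.07 and 0.02 on day 4 and -1.59 and -2.05 on day 6. The 3 days were fully apart and its trend of -4.0 ± 0.14 (adjusted p = 8.97e-08) was the largest fall. Noct, a deadenylase-like phosphatase of the circadian output, was at 1.86 and 1.35 on day 2, 0.23 and -0.42 on day 4 and -0.87 and -1.70 on day 6 (trend -2.89 ± 0.13). Sfn, the epithelial 14-3-3 sigma protein and a p53 target, was at 1.88 and 2.2, then -0.13 and 0.37, then -0.79 and -0.31. Smyd1, a methyltransferase known from muscle, had nearly the same course, at 1.94 and 2.05 on day 2, 0.16 and 0.26 on day 4 and -0.56 and -0.43 on day 6. The Smyd1 and Sfn probes were also alike with RA, with day means of 1.02, -0.71 and -0.43 against 1.04, -0.74 and -0.66. With DMSO they were at 0.22, 0.60 and -0.76 against 0.25, 0.61 and -0.94. After Pou5f1 RNAi Smyd1 differed from vector cells by 0.01 and Sfn by 1.83. Whether the 2 probes measure separate transcripts was not tested. Gja1, which encodes the gap junction protein connexin 43, was at 1.49 and 1.07 on day 2 and -0.87 and -1.19 on day 6. Pmaip1, which encodes the BH3-only protein Noxa, was at 1.64 and 0.90 on day 2 and -0.77 and -1.42 on day 6, and Fgf18, a growth factor, at 1.37 and 0.97 on day 2 and -0.56 and -1.28 on day 6. In each of these genes the sign turned on both dye orientations.

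Trh, Slc27a2, Gstt2 and Apoe, also among the 10 largest falls, were not higher than in untreated cells at day 2. Trh, the gene of thyrotropin-releasing hormone, was at -1.27 and -0.98 on day 2, -5.22 and -4.78 on day 4 and -5.11 and -4.56 on day 6. Days 4 and 6 overlapped and both lay far below day 2 (trend -3.71 ± 0.13). Slc27a2, a fatty acid transporter with acyl-CoA synthetase activity, was at -0.66 and -1.25 on day 2 and -2.87 and -3.31 on day 4. Apoe, a lipid carrier, fell in even steps, at 0.22 and 0.11, -1.0 and -1.30, -2.34 and -2.61 over the 3 days (trend -2.64 ± 0.12), and Gstt2, a glutathione transferase, did likewise to -2.70 and -2.79 on day 6. Foxh1, the forkhead partner of Smad proteins in Nodal signalling, was slightly higher at day 2 (adjusted p = 0.0156) and fell late, at 0.11 and 0.59 on day 2, -0.56 and 0.09 on day 4 and -2.62 and -1.68 on day 6. Lefty1, a Nodal antagonist and a known target of that pathway, was also late, at -0.62 and -0.75 on day 2, -1.20 and -0.94 on day 4 and -2.26 and -2.50 on day 6. Epha2, an ephrin receptor, fell early instead, to -1.68 and -1.80 on day 4, and a second probe gave a like trend of -2.27.

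Day 4 had its own response. Of 19 tested genes of cholesterol and fatty acid synthesis, 16 bent upwards at day 4 and 0 downwards, where 7.54% of all genes bent upwards, and at an unadjusted p under 0.05 limma gave 19 upwards and 0 downwards. All but 1 of the 19 were higher than untreated cells at day 4 (18, where 30.5% of all genes were higher), 11 were higher at day 2 and 13 at day 6, and the median was 0.42, 1.13 and 0.42 over the 3 days. Scd1, a stearoyl-CoA desaturase, was at 1.22 and 1.17 on day 2, 2.25 and 2.60 on day 4 and 1.66 and 1.67 on day 6. Scd2, its relative, was at 1.01 and 1.11 on day 2, 2.13 and 2.08 on day 4 and 1.67 and 1.38 on day 6. Srebf2, which encodes the transcription factor of the pathway, was at 0.69 and 1.16, 1.27 and 1.86, 0.27 and 0.97 over the 3 days, with a bend of 0.79 and overlap between days 2 and 6. Cyp51, a demethylase of the pathway, was equal on days 2 and 4, at 1.19 and 0.61 and then 1.19 and 0.64, and fell by day 6. Without the dye term 0 of the 16 bends passed, while 11 of the 18 day 4 differences did. Without replicate 2 of day 4 7 of the bends passed, and 11 did without replicate 1.

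Other genes, of matrix, growth factor binding and endocytosis, also peaked on day 4. Col1a2, a chain of type I collagen, was at 0.69 and 0.89 on day 2, 3.96 and 4.16 on day 4 and 3.50 and 3.63 on day 6. It was highest on day 4 but kept most of its rise, so its class was early plateau and not day 4 peak. Col1a1, its partner chain, turned back further, at 0.08 and 0.49, 1.84 and 2.73, 1.02 and 1.46 over the 3 days. Igfbp4, a binding protein of insulin-like growth factors, was at 0.18 and 0.19 on day 2, 2.92 and 3.15 on day 4 and 2.21 and 2.28 on day 6 (bend 1.82). Lrp2, the endocytic receptor megalin, was already up on day 2, at 2.56 and 1.56, and stood at 3.33 and 2.53 on day 4 and 0.78 and 0.30 on day 6. Its trend was -1.53, and its other probe had a smaller day 2 ratio of 0.90 and a trend of -0.86. Gbp2b, a guanylate-binding protein induced by interferon, was at 2.77 and 2.10, 3.41 and 2.67, then 0.55 and -0.54. Of 20 tested Nodal, BMP and Wnt genes 10 bent upwards and 1 downwards, and of 21 tested mitosis genes 8 bent upwards and 0 downwards by limma (15 and 0 at an unadjusted p under 0.05), where 7.54% of all genes bent upwards and 4.68% downwards. At day 4 9 mitosis genes were higher and 1 lower than in untreated cells, where 30.5% and 25.5% of all genes were. At day 2 1 was higher and 6 were lower, where 24.3% and 20% of all genes were. The number of upward mitosis bends was 3 without replicate 1 of day 4 and 2 without replicate 2, and 0 without the dye term.

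Some genes were lowest on day 4. Hmox1, the haem-degrading enzyme of the oxidative stress response, moved most, at 2.49 and 2.79 on day 2, -1.20 and -0.84 on day 4 and -0.03 and 0.42 on day 6. The days were fully apart and the bend of -2.44 had an adjusted p of 3.03e-06. Ncl, which encodes nucleolin, was at -0.23 and -0.64 on day 2, -2.37 and -2.61 on day 4 and -1.39 and -2.01 on day 6. Tfrc, the transferrin receptor, was lowest on day 4 by 1 probe, at -1.67 and -2.49, but its other probe had a trend of -0.08, so its course is uncertain. Myc, the growth-promoting transcription factor, was at 1.17 and 0.55 on day 2, -0.64 and -1.21 on day 4 and 0.60 and -0.05 on day 6, with a bend of -1.49.

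Some genes made most of their rise between days 4 and 6. Ndrg1, a stress- and hypoxia-responsive gene, was at 0.38 and -0.21 on day 2, 0.86 and 0.21 on day 4 and 3.05 and 2.89 on day 6. Its other probe rose by 2.17. Sbsn, which encodes the epithelial secreted protein suprabasin, was at 0.04 and 0.39, 0.27 and 0.51, then 2.48 and 2.85. Crabp2, a carrier of retinoic acid, was at 1.33 and 0.98 on day 2, 1.62 and 1.27 on day 4 and 2.97 and 2.63 on day 6. Its relative Crabp1 started below untreated cells, at -0.72 and -0.68 on day 2 and -0.39 and -0.23 on day 4, and stood at 2.05 and 2.22 on day 6. Plet1, a surface protein of placenta and epithelial progenitors, did so from lower, at -1.30 and -1.31, -1.36 and -1.35, then 1.12 and 0.89. In Ndrg1, Sbsn, Crabp1 and Plet1 the days 2 and 4 were within 1 log2 of each other on each dye, and day 6 was apart. Tuba4a, a tubulin, was measured by a probe that reversed upwards (trend 1.67) and a probe that fell (trend -2.12), so no direction is given for it.

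Genes of ribosomes and of amino acid synthesis fell over the course. Of 24 tested ribosomal protein genes, 14 fell over time and 0 rose by limma (15 and 0 at an unadjusted p under 0.05), and 14, 18 and 23 were lower than in untreated cells on days 2, 4 and 6, with medians of -0.32, -0.49 and -0.66. Of all genes 17% fell over time, and 20%, 25.5% and 28.1% were lower on the 3 days. Fitted without dye, 7 ribosomal protein genes were lower on day 6. Rpl4, first of the list by its trend, was at -0.18 and -0.12 on day 2, -0.57 and -0.66 on day 4 and -0.84 and -1.0 on day 6. Of 22 tested genes of amino acid synthesis and stress, 15 fell and 1 rose (17% and 12.7% of all genes). Psat1 and Phgdh, enzymes of serine synthesis, fell the most: Psat1 was at 0.14 and 0.07 on day 2, -1.39 and -1.57 on day 4 and -1.54 and -1.97 on day 6, and Phgdh at 0.35 and 0.91, -0.86 and -0.29, then -1.23 and -0.85. Cebpb, a CCAAT-binding factor, was the member that rose, by 0.51. Without the dye term 0 genes passed as falling in either list, with all 18 arrays in the fit 3 and 9 did, and without replicate 1 of day 6 6 ribosomal protein genes did.

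Of 18 tested basement membrane genes 8 rose and 1 fell, where 12.7% of all genes rose and 17% fell. Col4a1, a chain of type IV collagen, was at 1.44 and 1.34 on day 2, 2.75 and 2.64 on day 4 and 3.64 and 3.28 on day 6, and Col4a2, transcribed from the same promoter region, was at 0.94 and 0.65, 2.19 and 2.21, then 2.83 and 2.79. Of 13 tested genes of P-TEFb and the BET proteins, through which HMBA is known to act, 5 were higher and 0 lower at day 2 by limma, adjusted or not (24.3% and 20% of all genes). Over time 2 rose and 4 fell (12.7% and 17% of all genes). With 13 genes, all these counts lie within a few genes of the shares of all genes and are not read as a result. Brd2, a BET protein, was at 1.45 and 1.25 on day 2, 0.16 and -0.12 on day 4 and 0.04 and 0.01 on day 6. Ell2, an elongation factor, was at 0.43 and 0.62 on day 2 and -0.62 and -0.30 on day 6. Hexim1 was not among the tested genes. Of 10 tested erythroid genes, the response HMBA is known for in erythroleukaemia cells, 1 was higher and 5 were lower at day 2 and 2 rose and 2 fell over time, the last near the shares of all genes.

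Lists of other lineages had mixed directions, with counts of few genes each, many of them near the shares of all genes (12.7% rose and 17% fell). Of 16 tested neural genes 2 rose and 5 fell, of 15 of the primitive streak and mesoderm 2 rose and 3 fell, of 14 of the primitive endoderm 4 rose and 3 fell, of 6 endothelial markers 1 rose and 1 fell, and of 5 blood cell markers 0 rose and 1 fell by the limma test (0 and 2 unadjusted). Their median trends lay between -0.33 and 0.23. Nes, the intermediate filament nestin, was up early, at 2.07 and 1.42 on day 2, 0.29 and -0.23 on day 4 and -0.08 and -0.30 on day 6. Ina, a neuronal intermediate filament, was at 0.40 and 0.23 on day 2, -1.99 and -1.87 on day 4 and -2.21 and -2.09 on day 6. The defining marker of a lineage cannot be placed at 0 from ratios, and the part of other cells in the changes above was not tested.

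HMBA's course was set against those of RA and DMSO in a fit of all 18 two-colour arrays, over 10763 probes with a value on each. The HMBA trend differed from the RA trend at 185 probes (1.72%) and from the DMSO trend at 335 (3.11%). All 3 treatments were measured against untreated cells, so the values are given side by side. Rhox6 had day means of -0.37, 0.76 and 4.12 with HMBA and 0.84, 3.29 and 4.73 with RA, and stayed at -0.35, -0.34 and -0.23 with DMSO. Its trend with HMBA exceeded that with DMSO by 4.37 ± 0.25 (limma adjusted p = 2.2e-08). Cdkn1c likewise had means of 0.16, 1.13 and 3.53 with HMBA, 1.63, 2.75 and 3.25 with RA and -0.32, -0.42 and -0.13 with DMSO. With RA both genes were higher on day 2 than with HMBA by their means, and on day 6 all 4 means lay above 3. Crabp1 had means of -0.70, -0.31 and 2.14 with HMBA, of 3.07, 2.51 and 2.48 with RA and of -0.50, -0.58 and 1.20 with DMSO, and its HMBA trend exceeded the RA trend by 3.43 ± 0.28. Pim2 had means of 2.18, 0.04 and -1.82 with HMBA, -1.13, -1.62 and -3.14 with RA and 2.76, 1.78 and 1.59 with DMSO. On day 2 Pim2 was thus raised with HMBA and DMSO and lowered with RA, and on day 6 it was lowered with HMBA and RA. Pou5f1 had means of -0.14, -2.05 and -2.22 with HMBA, -1.31, -2.04 and -2.44 with RA and 0.24, -0.67 and -1.44 with DMSO, and its trend difference from RA missed the threshold (-0.95 ± 0.33, adjusted p = 0.207). Dppa2 held near -2 with HMBA, at -2.07, -2.53 and -2.24, and was at 0.28, -0.66 and -0.63 with RA and -1.25, -3.59 and -4.35 with DMSO.

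**Figure D4:**
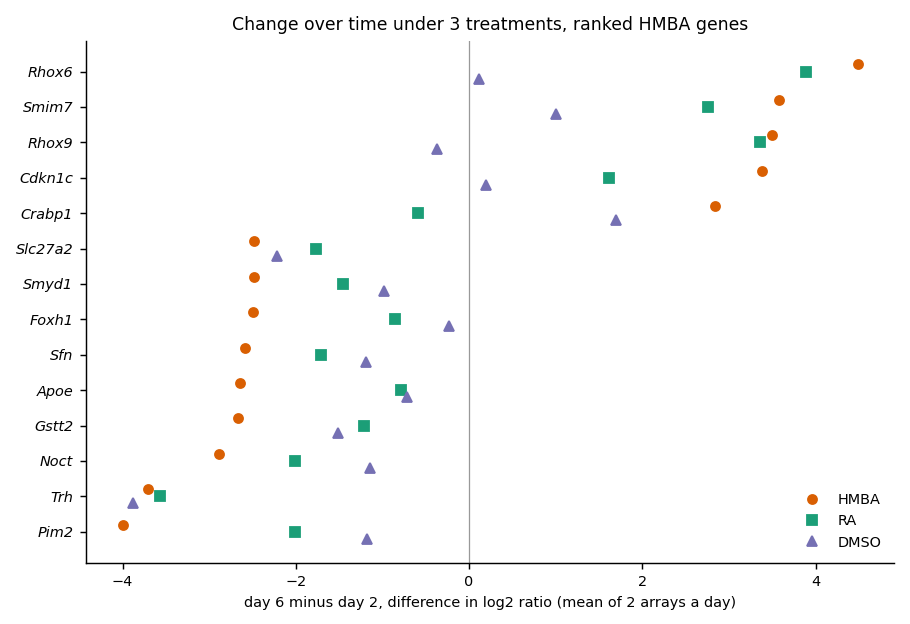
Change over time of 14 genes with HMBA, RA and DMSO. Points give the day 6 minus day 2 difference in log2 ratio, from the mean of 2 arrays a day. The genes are those of the 20 most changed that had values on all 18 arrays. Rhox6, Rhox9 and Cdkn1c have positive differences with HMBA and RA and differences near 0 with DMSO. Crabp1 has positive differences with HMBA and DMSO and a negative one with RA.

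The RNAi arrays give another readout of the same genes, on another platform and with no HMBA. They are described without a test, for 10163 genes on both. Of the genes that rose steadily with HMBA, 34 of 51 were higher by at least 1 log2 in Pou5f1 RNAi cells than in vector cells and 1 was lower, where 6.73% of all genes were higher and 4% lower. Late rises gave 12 higher and 1 lower of 21 and early plateau rises 34 and 0 of 75, with median differences of 1.34, 1.81 and 0.81 for steady, late and early plateau rises. Early held rises had a smaller median of 0.43 and day 4 peaks one of 0.38. Of the early held falls 39 of 77 were lower by at least 1 log2 in Pou5f1 RNAi cells and 0 higher. Reversing genes that ended lower had a median of -0.12, with 24 of 198 lower and 8 higher by at least 1 log2. Of 91 rises that faded 34 were higher and 1 lower after Pou5f1 RNAi. After Nanog RNAi 1.29% of all genes were higher and 0.62% lower. There 13 of the 77 early held falls were lower and 4 higher, and 13 of the 91 rises that faded were higher and 0 lower. Some other classes had like shares after Nanog RNAi. Of steady rises 7 of 51 were higher and 0 lower, of early plateau rises 9 of 75 higher and 1 lower, and of fading falls 5 of 35 lower and 1 higher. The remaining classes had lower shares in their own direction, such as 4 of 95 early held rises higher and 1 of 52 steady falls lower.

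**Figure D5:**
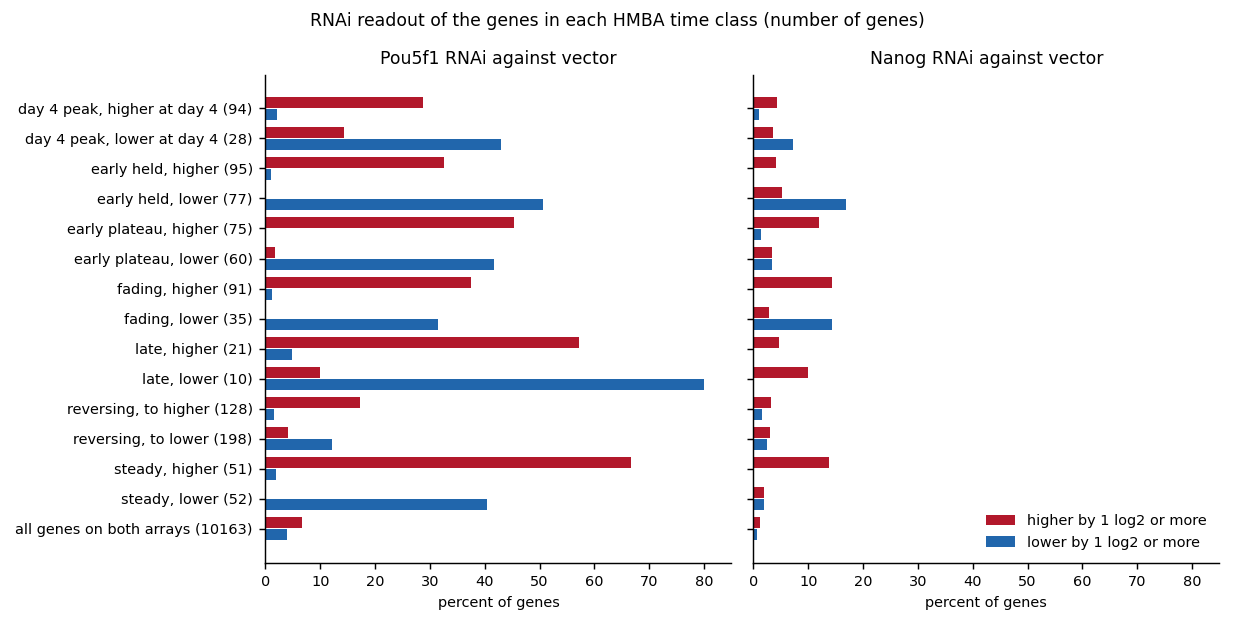
Share of genes of each HMBA time class that differed by at least 1 log2 between RNAi and vector cells. Bars give the percent of genes higher and lower in Pou5f1 RNAi and Nanog RNAi cells, with all genes on both platforms in the lowest pair of bars. Steady and late rises with HMBA have the tallest bars of higher genes after Pou5f1 RNAi.

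Single genes show both likeness and difference. Rhox6 had a level of 12.7 ± 0.11 log2 in Pou5f1 RNAi cells (SD, n = 4) and 6.97 ± 0.37 in Nanog RNAi cells (n = 5), against 5.41 ± 0.238 in vector cells (n = 5). Krt7 differed from vector cells by 6.15 after Pou5f1 RNAi and by 1.01 after Nanog RNAi, Nrk by 5.84 and 2.28, and Plac1 by 5.65 and 1.34. Tagln, which HMBA raised early, differed by 5.43 after Pou5f1 RNAi and Acta2 by 3.34. Morc1 differed by -3.20 after Pou5f1 RNAi and by -0.02 after Nanog RNAi. Several genes of the HMBA course had no like difference after Pou5f1 RNAi: Smim7, a small membrane protein gene that rose with HMBA to 3.92 and 3.96 on day 6, differed by -0.14, Col1a2 by 0.19, Smyd1 by 0.01 and Noct by 0.12. Crabp1 went the other way, at -1.39. On the RNAi arrays each gene was read by its probe set with the highest mean. Levels in Pou5f1 RNAi and vector cells were 5.23 and 5.05 log2 for Col1a2 and 5.815 and 5.809 for Smyd1. These lie near the 5.41 of Rhox6 in vector cells, and whether Col1a2 and Smyd1 were expressed in these cells was not tested. The gene names of the two-colour probes come from GEO's platform annotation, which can be old, and whether each probe still matches its gene was not tested. Pou5f1 itself was at 9.04 ± 0.223 log2 after Pou5f1 RNAi and 11.4 ± 0.0889 in vector cells, a difference of -2.38.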

How the data were processed

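Values of the two-colour arrays are log ratios of treated over untreated cells, per the labels, which also say that the direction was made the same on swapped arrays. The log base, background correction and within-array normalization are not given in the sources used here, the base was taken as log2, and each deposited array has a median of 0. The RNAi values are deposited log2 levels made by RMA, per the labels. RNA was converted with oligo dT primers and labelled through aminoallyl groups, per the labels' protocols.

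Of 21106 probes 14938 had values on all 6 HMBA arrays, and no value was imputed. The model held a mean per day and a dye term. Its linear fits and moderated tests (eBayes) came from limma 3.58.1 under R 4.3.3, and a call is a Benjamini-Hochberg adjusted p under 0.05 over all these probes. The difference of trends between treatments was fitted on all 18 arrays over 10763 probes. The replicate number is the dye orientation, and it was used as a block because the deviations of same-numbered arrays from their day means correlated at 0.86, 0.83 and 0.91 between the 3 pairs of days. A dye effect passed the test at 9234 probes, with a median size of 0.363 log2. The fits were tested on simulated data.

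Of the tested probes 12208 carried exactly 1 gene symbol, 70 several and 2660 no entry. Lists count each of 11030 genes by the probe with the most values. Columns of the files that were not used number 0. Plots were made in Python 3.11.15 (matplotlib 3.10.9).

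Genes named are Pou5f1, Nanog and Sox2, the 10 largest called rises and falls with 1 sign in both dye orientations, the 6 largest of each time class and direction by their most changed probe, and in each of 29 gene lists the first 6 by the trend's p and the first 4 by the day 2 p. Other members are said to be named after their values were seen. Not every gene that the rule names is reported here. The members, lists and classes were chosen with earlier results of these data known.

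Alternatives were no dye term, all 18 arrays in the fit, a straight line over days, probes with 1 value a day, arrays scaled to equal spread, other limits of the classes and each array left out. On arrays the number of arrays limits the precision.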

Additional observations from a re-analysis of the deposited data

Results flagged for a closer look

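Among the 20 genes with the largest change over the HMBA course, those with values on all 18 two-colour arrays were tested for a trend (day 6 minus day 2) that differed from that with DMSO or RA, in a limma fit of all these arrays with a common dye term. The differences in log2 that passed are given as HMBA minus the other treatment, with the SE. Every comparison shares the untreated cells as the second channel.

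Against DMSO the trend was higher with HMBA for Rhox6 by 4.37 ± 0.25 (adjusted p = 2.2e-08), Rhox9 by 3.88 ± 0.34 (adjusted p = 6e-06), Cdkn1c by 3.18 ± 0.26 (adjusted p = 1.8e-06) and Smim7 by 2.56 ± 0.26 (adjusted p = 1.3e-05). Crabp1 also had a higher trend, by 1.13 ± 0.28 (adjusted p = 0.031). It was lower with HMBA for Pim2, at -2.82 ± 0.28 (adjusted p = 1.3e-05), Foxh1, at -2.27 ± 0.32, Apoe, at -1.92 ± 0.3, and Noct, at -1.75 ± 0.26. Smyd1, at -1.51 ± 0.31, and Sfn, at -1.4 ± 0.3, differed in the same direction with adjusted p of 0.0099 and 0.012.

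Against RA the trend was higher with HMBA for Crabp1 by 3.43 ± 0.28 (adjusted p = 2.7e-06) and for Cdkn1c by 1.76 ± 0.26 (adjusted p = 0.0013). It was lower with HMBA for Pim2, at -1.99 ± 0.28, Apoe, at -1.85 ± 0.3, Foxh1, at -1.64 ± 0.32, and Gstt2, at -1.45 ± 0.33, with adjusted p from 0.001 for Pim2 to 0.029 for Gstt2. The group sizes of 2 arrays a day were below those in which single arrays were tested for standing apart.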

How the results depend on the processing

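Leaving out the replicate block, which is the dye orientation, changed the counts most: called probes (higher, lower) came to 52 (26, 26) for the trend, 473 (303, 170), 1781 (1095, 686) and 1630 (845, 785) for days 2, 4 and 6, 0 (0, 0) for the bend, 6 (3, 3) for HMBA minus RA and 24 (17, 7) for HMBA minus DMSO. With all 18 arrays in the fit the trend had 1632 (744, 888), day 2 3483 (1923, 1560) and the bend 367 (201, 166), and a straight line over days gave a trend at 1263 probes (467, 796). With 1 array left out, called, higher and lower probes ranged as follows: trend 2833 to 3882, 1135 to 1687 and 1698 to 2195; day 2 3800 to 6771, 2360 to 3763 and 1440 to 3008; day 4 4180 to 8612, 2420 to 4541 and 1760 to 4071; day 6 5361 to 8349, 2495 to 4008 and 2653 to 4341; bend 376 to 1954, 215 to 1250 and 161 to 843; HMBA minus RA 69 to 98, 30 to 45 and 36 to 53; HMBA minus DMSO 172 to 238, 102 to 140 and 70 to 98. The counts that moved by over 1.5 times were those of day 2 without replicate 1 of day 2 (3800), of day 4 and the bend without replicate 1 (4872, 516) or 2 (4180, 376) of day 4, of the trend without replicate 1 of day 6 (2833), of HMBA minus RA without any array of day 2 (98, 85) or day 6 (70, 69), and of HMBA minus DMSO without replicate 1 of day 2 (205) or either array of day 6 (220, 172). An arm left with 1 array is assumed to vary like the others. Of 78 named genes with a called trend, 32 kept it without the block, 60 with a straight line, 75 with 18 arrays, 77 with scaled arrays and 76 to 78 with 1 array left out. Among the 20 largest changes Plac1, Noct, Thbs1, Foxh1 and Slc27a2 lost the call without the block. Nr0b1 turned sign with scaled arrays, at 0.39 against -0.48. Class counts also moved: with a size minimum of 0.5 log2 there were 1314 early held, 975 early plateau, 906 steady, 439 fading, 212 day 4 peak and 202 late probes, with steps of 35 to 65% there were 57 steady, and with 18 arrays 152 reversing and 93 fading. The cause of these changes was not tested.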

Other observations

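Genes of germ cells and the 2-cell embryo were lower from the start. Of 13 tested 10 were lower at day 2, 12 at day 4 and 11 at day 6, and 0 were higher on any day by the limma test, adjusted or not. Of all genes 20%, 25.5% and 28.1% were lower on these days. The list had median log2 ratios of -0.54, -0.77 and -0.76. Dppa3, the maternal factor Stella, was at -1.51 and -2.10 on day 2, -2.13 and -2.82 on day 4 and -1.13 and -1.59 on day 6, so that its day 4 arrays were lowest. Dazl, an RNA-binding protein of germ cells, was at 0.05 and -1.12 on day 2, -1.75 and -2.98 on day 4 and -1.05 and -2.24 on day 6. Tex19.1, a germline and placental gene, was at -0.98 and -0.64 on day 2, -2.86 and -2.37 on day 4 and -1.85 and -1.30 on day 6.

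Genes of glycolysis and hypoxia and of the cell cycle had mixed courses. Of 18 tested genes of glycolysis and hypoxia 9 bent downwards at day 4 and 2 upwards (4.68% and 7.54% of all genes), and 8 were higher at day 6 and 4 at day 2 (26.6% and 24.3% of all genes), the last near that share. Bnip3, a mitophagy gene induced in hypoxia, was at -1.36 and -1.99 on day 2, -0.88 and -1.77 on day 4 and 0.62 and -0.10 on day 6 (trend 1.93 ± 0.13). Of 23 tested replication genes 8 were lower at day 2, 10 at day 4 and 15 at day 6 (20%, 25.5% and 28.1% of all genes). Of 24 tested genes of G1 control and p53, 11 fell over time and 4 rose (17% and 12.7% of all genes). Ccnd1, cyclin D1, was low throughout, between -2.41 and -1.44 on the 6 arrays, and Mycn, a Myc family factor, was at -0.19 and -0.78 on day 2, -1.90 and -2.10 on day 4 and -1.72 and -1.92 on day 6.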
